A study of Rattus norvegicus with 18 samples.

Results

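The genes described here encode the AP-1 transcription factors of the Fos family (Fos, Fosb, Fosl1 and Fosl2) and of the Jun family (Jun, Junb and Jund) in rat cortical neuroglial cultures under glutamate excitotoxicity. Their rows were found by gene name, and all 7 names were present among the 31463 rows of the count tables. All 7 passed the filter on low counts, which left 14398 genes for testing. RNA was sequenced in 18 libraries, 3 in each of 6 groups. The cultures came from the cortex of newborn Wistar rats, received cytosine arabinoside, which limits the division of glial cells, and were used on day 10 in vitro.

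Control cultures were left intact, and whether they went through the buffer changes of the exposed cultures is not stated. Glutamate cultures were exposed to 100 µM glutamate, and RNA was extracted 4 h later. By the study's methods, the glutamate was given with glycine and was washed out before the cultures returned to medium. Memantine cultures received 100 µM memantine, which blocks the open channel of NMDA receptors. Their label does not name glutamate, but the description of the series places them within the glutamate model as its positive control. In the groups Glutamate_vesicles, Glutamate_secret and Glutamate_BPC, secreted material of human glial progenitor cells derived from induced pluripotent stem cells was added on the day before glutamate. The first of these received extracellular vesicles. The labels do not say whether the protein fraction was given to Glutamate_secret or to Glutamate_BPC, the total secretome being given to the other, so their names are kept as given. The study states in general that its experiments were repeated on separate cultures, while the labels do not tie the 3 libraries of a group to them, so p-values measure the spread between these libraries, which may be partly technical.

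AP-1 is a dimer of basic leucine zipper proteins that binds the sequence known as the TPA response element. Fos proteins do not form stable dimers with each other and need a Jun partner, whereas Jun proteins pair with themselves, with Fos proteins and with ATF family proteins. In neurons, Fos, Fosb and Junb are immediate early genes that respond within minutes to calcium entry through NMDA receptors and L-type channels, and in astrocytes and microglia they respond to growth factors and injury. The proteins differ in activity: Junb and Jund act as weaker activators than Jun in many settings, and Fosl1 and Fosl2 lack the strong transactivation domain of Fos.

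Promoter sequence was matched for 5 of the 7 genes, taken from RefSeq on the build GRCr8, and no sequence was matched for Fos and Jun. GRCr8 is not the build of the count tables, for which rn6 is named. The 250 bases upstream of the start site are shown for Junb and Fosl1, the 2 genes besides Fos with the smallest p in the pooled comparison with Control below, and for Jund, whose ranges overlapped Control in every group. Capitals mark matches to the core of the cyclic AMP response element (CRE core, TGACG, or CGTCA when read on the other strand), to the full element (TGACGTCA, which contains the core on both strands) and to the TATA box (TATAAA).
Junb: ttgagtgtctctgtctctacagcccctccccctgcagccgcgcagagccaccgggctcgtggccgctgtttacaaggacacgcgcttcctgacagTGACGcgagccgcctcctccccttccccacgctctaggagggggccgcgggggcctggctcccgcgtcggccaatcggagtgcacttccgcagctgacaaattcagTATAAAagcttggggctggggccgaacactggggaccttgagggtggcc
Fosl1: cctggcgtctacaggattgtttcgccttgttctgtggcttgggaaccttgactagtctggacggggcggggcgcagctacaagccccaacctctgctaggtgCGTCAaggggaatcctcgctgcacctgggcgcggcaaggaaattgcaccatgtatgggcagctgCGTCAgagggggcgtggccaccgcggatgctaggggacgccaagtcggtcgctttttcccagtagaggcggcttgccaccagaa
Jund: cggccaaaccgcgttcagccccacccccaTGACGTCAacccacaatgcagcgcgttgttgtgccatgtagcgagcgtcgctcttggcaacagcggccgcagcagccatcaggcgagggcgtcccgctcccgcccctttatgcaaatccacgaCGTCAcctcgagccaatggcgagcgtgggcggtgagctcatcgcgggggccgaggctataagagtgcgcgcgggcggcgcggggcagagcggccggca

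These stretches lie at chr19:40080876-40081125 on the plus strand for Junb, at chr1:212183635-212183884 on the plus strand for Fosl1 and at chr16:18769772-18770021 on the minus strand for Jund, each written 5′ to 3′ toward the start site. Junb held 1 CRE core, 155 bases before the start site, and a TATA box at 49 bases. Fosl1 held CRE cores at 148 and 84 bases. Jund held the only full CRE among the 5 promoters, at 221 bases, and a further CRE core nearer to the start site. Across 33469 promoters of the same length, searched on both strands, 18.2% held a CRE core, 1.59% a full CRE and 12.9% a TATA box. An AP-1 site, spelled TGACTCA or TGAGTCA, occurred in 4.05% of promoters and in none of the 5, and a CArG box in 1.5% and in none of the 5. The Fosb promoter held a TATA box match alone, at 180 bases, and that of Fosl2 held no match. These matches describe letters only.

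Library totals ranged from 8409574 to 17206354 estimated counts. The share of ribosomal RNA ranged from 3.04% to 43.0%. The highest value belonged to Control 1, the shallowest library, with Wilson bounds at 95% confidence of 42.98% and 43.05%, which cover counting error only. Levels are given as CPM, counts scaled to library sizes after TMM adjustment (trimmed mean of M values), which allows the same gene to be compared between libraries but not different genes with each other, since transcript length is not removed. The summed CPM of 10 neuronal markers was 2439 to 3233 in Control, 547 to 1315 in the 12 libraries exposed to glutamate without memantine, and 769 to 4147 in Memantine. The summed CPM of 7 astrocyte markers was 2622 to 6040 in Control and 3388 to 12712 in those 12 libraries. That of 7 markers of the oligodendrocyte lineage was 374 to 665 in Control and 677 to 1397 in the 12 libraries, and that of 7 microglial markers 37.7 to 99.3 and 49.0 to 556. The listed markers of neurons, astrocytes, microglia and the oligodendrocyte lineage were detected in every group, while sums for fibroblast or mural markers did not exceed 19.5 CPM and those for endothelial markers did not exceed 3.92 CPM, with Dcn at 0 in Control. Fewer cells of a type and less RNA per cell cannot be told apart in these bulk libraries, and the part of the marker shifts in the AP-1 values was not tested.

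Fos, the founding partner of Jun in AP-1, separated Control from all exposed cultures. Control libraries 1 to 3 held 13.7, 11.9 and 9.10 CPM. Glutamate libraries held 27.6, 43.5 and 80.2 CPM, and Memantine libraries held 47.2, 19.7 and 41.0 CPM. The values were 36.4, 25.0 and 23.8 CPM in Glutamate_vesicles, 31.0, 27.6 and 48.9 CPM in Glutamate_secret, and 38.7, 31.6 and 52.8 CPM in Glutamate_BPC. Every one of the 15 exposed libraries stood above the highest Control library, and the exposed groups overlapped one another. Of all tested genes, 1.77% stood above Control in this way in the 12 libraries without memantine, and 1.16% in Memantine. The share for all 15 libraries together was not computed. The group means (SD, n = 3) ordered as Control 11.6 ± 2.32 CPM, Glutamate_vesicles 28.4 ± 6.97, Glutamate_secret 35.8 ± 11.4, Memantine 36.0 ± 14.4, Glutamate_BPC 41.0 ± 10.8 and Glutamate 50.4 ± 26.9, and only the first step in this order exceeded the spread of the libraries on both sides of it. Fos counts were 48 to 824 per library, with the lowest in Control 1.

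**Figure D1:**
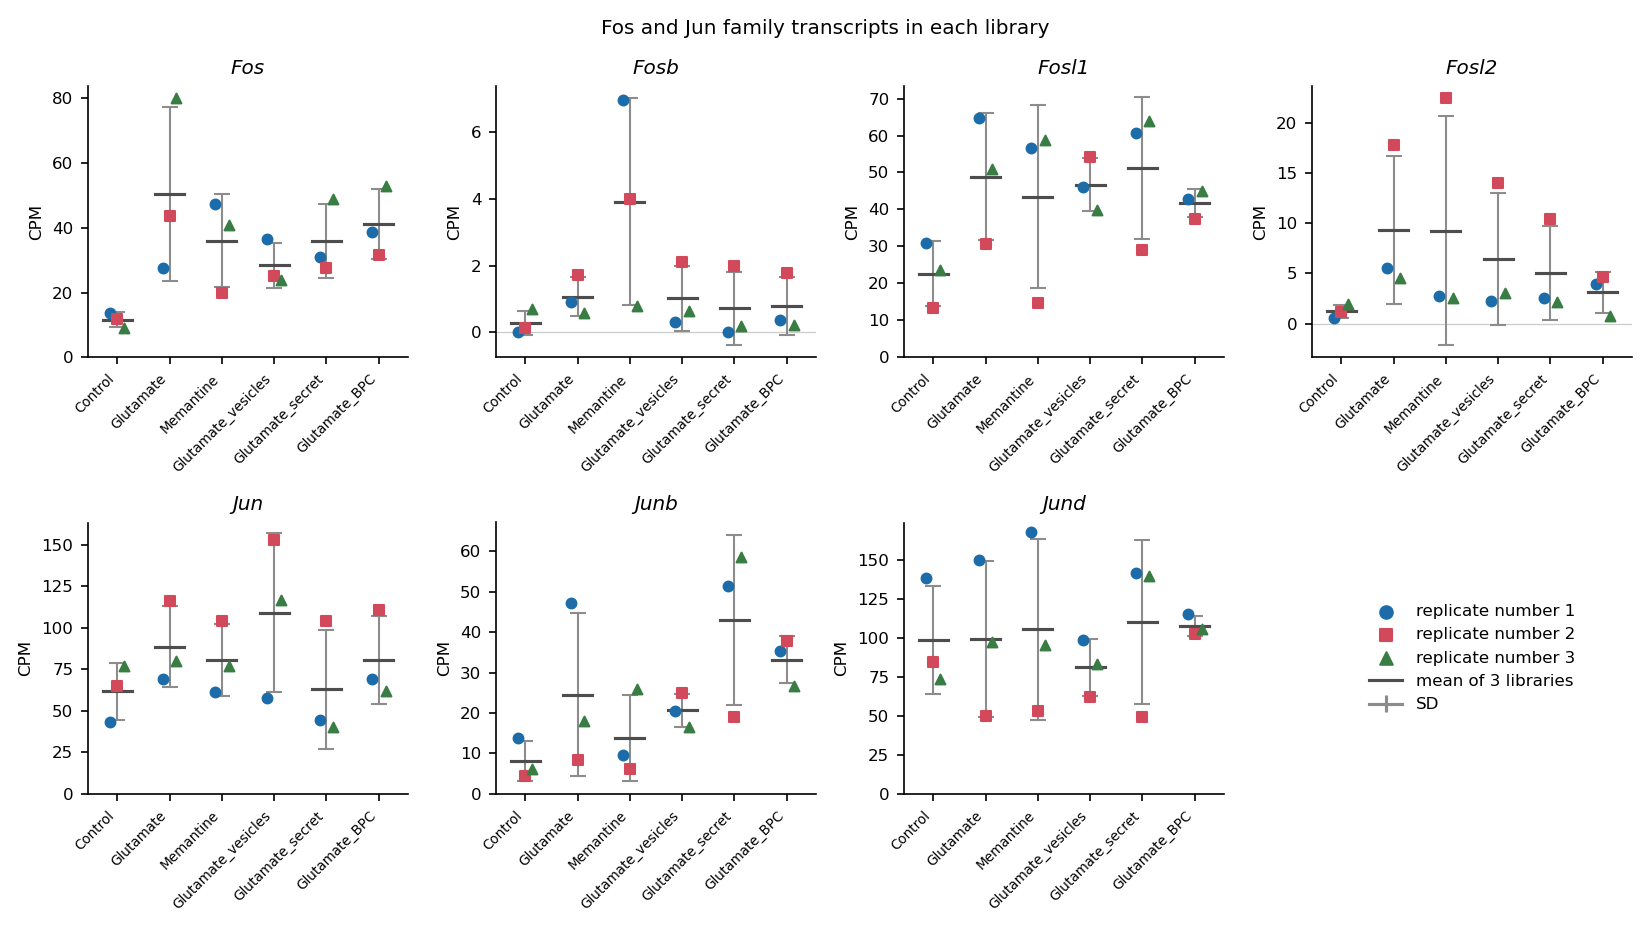
Levels of the 7 Fos and Jun family transcripts in CPM (vertical axes, a separate scale for each gene) in the 6 groups. Each point is 1 library, coloured and shaped by its replicate number, the horizontal line is the mean of 3 libraries and the bar is the SD. The 3 Control libraries of Fos (9.10 to 13.7 CPM) lie below all 15 others, whereas the Control range of Jund (73.7 to 138 CPM) lies within the range of the other libraries.

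In the direct comparison of Glutamate with Control, the log2 fold change of Fos was 2.13 (SE 0.44), and edgeR's quasi-likelihood test gave an adjusted p of 0.261. None of the 7 genes was called at an adjusted p below 0.05, and the same test called 0% of all tested genes. At an unadjusted p below 0.05, 4 of the 7 genes (Fos, Fosl1, Fosl2 and Junb) were higher in Glutamate, against 2.13% of all tested genes. CPM ranges without overlap and higher in Glutamate were found for 2 of the 7, Fos and Fosl2, against 4.48% of all genes. The median log2 fold change was 1.63 over the 7 genes and 0.08 over all genes. Fos was called by the likelihood-ratio test of edgeR (adjusted p = 0.0161, with 0.313% of genes called) and by DESeq2 (adjusted p = 0.00106, with 1.61% called), and no other member was called by either. The study names the same likelihood-ratio test, but it also set a limit on fold change and reported more genes. The share given here is therefore not the yield of the study.

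The 4 groups that received glutamate without memantine were next pooled, as the mean of their group means, and compared with Control. Fos rose with a log2 fold change of 1.72 (SE 0.38, 12 libraries against 3, edgeR adjusted p = 0.0199). It was the only one of the 7 genes called, against 3.96% of all tested genes called and 0.257% called and higher. At an unadjusted p below 0.05, 4 of the 7 genes (Fos, Fosl1, Fosl2 and Junb) were higher, against 4.87% of all genes. Only Fos had a CPM range above that of Control without overlap, 1 of 7 against 1.77% of all genes. An exact two-sided permutation test of the mean log2 CPM of Fos gave p = 0.002198, the smallest value that the possible assignments allow. It rests on the same separation of the ranges and is not further evidence. The call rested on each Control library, because the adjusted p of edgeR became 0.0505 without Control 1, 0.111 without Control 2 and 0.0909 without Control 3, at log2 fold changes of 1.86, 1.75 and 1.58. It was kept when any 1 of the 12 exposed libraries was left out. These comparisons share their Control libraries and are not independent of each other.

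Junb, an immediate early Jun protein, was low in Control and variable elsewhere. Control libraries 1 to 3 held 13.7, 4.32 and 6.19 CPM, Glutamate libraries 47.1, 8.44 and 18 CPM, and Memantine libraries 9.56, 6.11 and 25.9 CPM. In Glutamate_vesicles the values were 20.5, 24.9 and 16.6 CPM, in Glutamate_secret 51.4, 19.1 and 58.7 CPM, and in Glutamate_BPC 35.2, 37.9 and 26.6 CPM. Of the 12 libraries without memantine, 11 exceeded the highest Control library and Glutamate 2 did not, whereas the Memantine range overlapped that of Control. On the log2 scale the fold change was 1.63 (SE 0.66, edgeR adjusted p = 0.4996) for Glutamate against Control and 1.88 (SE 0.59, edgeR adjusted p = 0.0906) for the pooled groups, where the exact permutation test gave p = 0.004396. The value of Junb for Glutamate was 0.75 without Glutamate 1 and 2.22 without Control 1. In the pooled comparison Junb was called by the likelihood-ratio test (adjusted p = 0.0289, with 7.11% of genes called) and by DESeq2 (adjusted p = 0.00995, with 8.08% called).

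Fosl1, also known as Fra-1, lay at 30.8, 13.3 and 23.7 CPM in Control and at 64.8, 30.8 and 51.1 CPM in Glutamate. The values were 56.7, 14.8 and 58.9 CPM in Memantine, 46.0, 54.2 and 39.9 CPM in Glutamate_vesicles, 60.8, 29.1 and 63.9 CPM in Glutamate_secret, and 42.9, 37.4 and 44.9 CPM in Glutamate_BPC. Library 2 was the lowest of Control, Glutamate, Memantine, Glutamate_secret and Glutamate_BPC, and the highest of Glutamate_vesicles. Of the 12 libraries without memantine, 10 exceeded the highest Control library. On the log2 scale the fold change was 1.12 (SE 0.48, edgeR adjusted p = 0.551) for Glutamate against Control and 1.06 (SE 0.41, edgeR adjusted p = 0.179) for the pooled groups, with an exact permutation p of 0.006593.

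Fosl2, also known as Fra-2, was a transcript of low counts, 2 to 404 per library. Control held 0.571, 1.13 and 1.94 CPM, Glutamate 5.55, 17.8 and 4.57 CPM, and Memantine 2.79, 22.4 and 2.59 CPM. Glutamate_vesicles held 2.29, 14.04 and 3.01 CPM, Glutamate_secret 2.52, 10.4 and 2.17 CPM, and Glutamate_BPC 3.98, 4.61 and 0.759 CPM. Library 2 was the highest of every group except Control, and 11 of the 12 libraries without memantine exceeded the highest Control library. On the log2 scale the fold change was 2.86 (SE 1.06, edgeR adjusted p = 0.445) for Glutamate against Control and 2.12 (SE 0.92, edgeR adjusted p = 0.252) for the pooled groups, with an exact permutation p of 0.03077. The value for Glutamate was 1.97 without Glutamate 2, the library with the highest Fosl2 of that group.

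Fosb, whose protein accumulates in neurons after repeated stimulation as a stable truncated form, was close to the floor of detection, with 0 to 72 counts per library. Control held 0, 0.147 and 0.700 CPM, and the 12 libraries without memantine ranged from 0 to 2.13 CPM with a median of 0.608. Memantine held 6.98, 4.00 and 0.790 CPM, so that 2 of its libraries were the highest of all 18. On the log2 scale the fold change was 1.67 (SE 1.28, edgeR adjusted p = 0.943) for Glutamate against Control and 1.45 (SE 1.09, edgeR adjusted p = 0.6) for the pooled groups, with an exact permutation p of 0.156. Fold changes from counts this low depend on the prior count.

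Jun, a Jun family partner of Fos proteins, did not separate the groups. Its CPM was 43.4, 65.0 and 76.9 in Control, 69.4, 116 and 80.4 in Glutamate, 61.1, 104 and 77.0 in Memantine, 57.8, 153 and 117 in Glutamate_vesicles, 44.3, 104 and 40.2 in Glutamate_secret, and 69.3, 111 and 61.9 in Glutamate_BPC. Every group overlapped Control. On the log2 scale the fold change was 0.52 (SE 0.44, edgeR adjusted p = 0.977; 95% interval -0.42 to 1.46) for Glutamate against Control and 0.44 (SE 0.36, edgeR adjusted p = 0.648; 95% interval -0.33 to 1.20) for the pooled groups, with an exact permutation p of 0.3231.

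Jund, which many cells express constitutively, had the smallest difference of the 7 genes in both comparisons. Its CPM was 138, 84.5 and 73.7 in Control and 150, 50.03 and 97.6 in Glutamate. It was 168, 53.2 and 95.4 in Memantine, 98.5, 61.9 and 83.0 in Glutamate_vesicles, 142, 49.4 and 140 in Glutamate_secret, and 115, 103 and 106 in Glutamate_BPC. On the log2 scale the fold change was 0.0075 (SE 0.49, edgeR adjusted p = 0.999; 95% interval -1.04 to 1.05) for Glutamate against Control and 0.0025 (SE 0.39, edgeR adjusted p = 0.998; 95% interval -0.82 to 0.83) for the pooled groups, with an exact permutation p of 0.9538. The sign of these values turned with the scaling of the libraries, and the intervals leave room for changes of either direction.

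**Figure D2:**
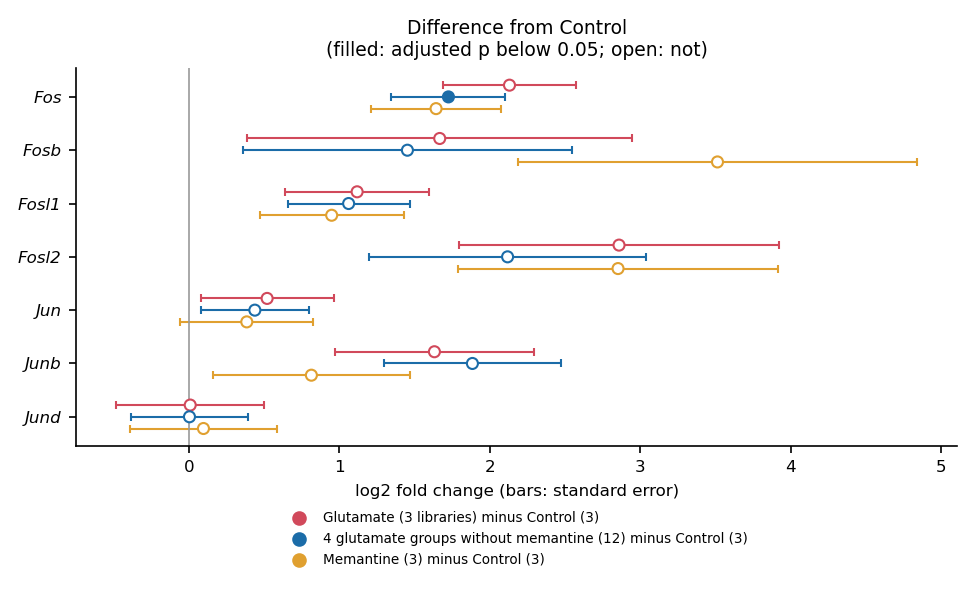
Log2 fold change from Control (horizontal axis, bars are the SE from edgeR) of the 7 genes for Glutamate, for the 4 pooled glutamate groups without memantine and for Memantine. The filled point, for Fos in the pooled comparison (1.72), is the only 1 with an adjusted p below 0.05, and the values of Jund lie close to 0.

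Replicate numbers were considered because libraries of the same number resembled each other in several groups, although the labels do not say that a number marks a shared culture or batch. The study's supplement describes removing variation tied to a day before some of its libraries were plotted, and the labels give no day, so whether a number marks a day is not known here. By the rule given under processing, numbers paired samples with Control for Glutamate_vesicles alone, so the following counts are descriptions. They reuse the 3 Control libraries, so the 12 comparisons are not independent, and shares over all genes are not given. Against the Control library of the same number, Fos was higher in 12 of 12 libraries without memantine, by 2.02-fold to 2.82-fold for number 1, 2.10-fold to 3.66-fold for number 2 and 2.61-fold to 8.81-fold for number 3. Fosl1 was higher in 12 of 12, by 1.39-fold to 4.06-fold, and Junb in 12 of 12, by 1.498-fold to 9.47-fold. Fosl2 was higher in 11 of 12, Jun in 10 of 12, and Fosb and Jund in 7 of 12 each. Fosb split by number, being higher in 4 of 4 libraries of number 2 and in 0 of 4 of number 3. With the labels permuted within each number, the exact two-sided p was 0.008 for Fos, Fosl1 and Junb, the smallest value that the 125 assignments allow. These 3 values restate the counts of 12 of 12 and are not further evidence. The same test gave 0.016 for Fosl2, 0.08 for Fosb, 0.216 for Jun and 0.944 for Jund.

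**Figure D3:**
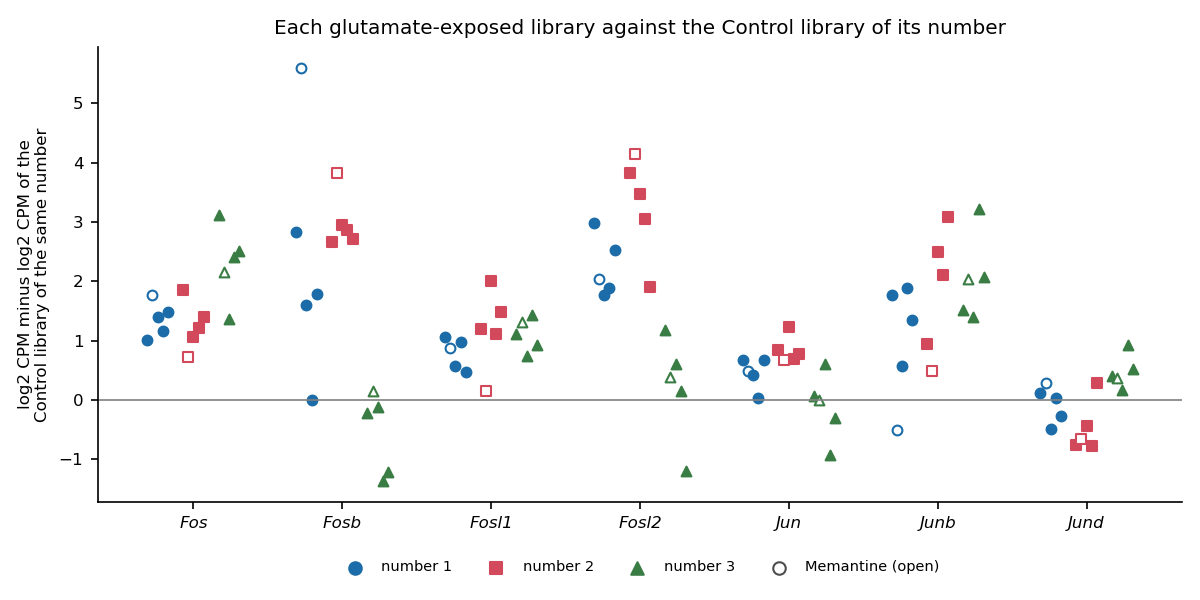
Log2 CPM (prior count 2) of each of the 15 exposed libraries minus that of the Control library with the same replicate number (vertical axis) for the 7 genes, with colour and shape for the number and open points for Memantine. All 15 points of Fos and of Fosl1 lie above 0, as do 14 of 15 for Junb and for Fosl2, whereas Jund has 9 of 15 above 0.

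Levels of some members also differed between library numbers. Jun had a median of 108 CPM over the 6 libraries of number 2, against 59.5 for number 1 and 77.0 for number 3, and Fosl2 had medians of 12.2, 2.66 and 2.38 CPM in the same order. Jund ran the other way, with 57.6 CPM for number 2, 140 for number 1 and 96.5 for number 3. The share of ribosomal RNA was 3.04% to 8.15% in the libraries of number 2, 13.4% to 43.0% in number 1 and 6.58% to 26.6% in number 3. Across the 18 libraries, Pearson's r of log2 CPM with the log2 share of ribosomal RNA was 0.81 for Jund, -0.78 for Jun, -0.63 for Fosl2, -0.60 for Fosb, 0.50 for Fosl1, 0.41 for Junb and 0.33 for Fos. These are descriptions over libraries that share scaling, and the part of RNA quality in the member levels was not tested. With the log2 share as a covariate, the quasi-likelihood test of the pooled comparison called 4 of the 7 genes (Fos, Fosl1, Fosl2 and Junb), against 10.8% of all genes.

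The question of whether memantine or the secreted preparations changed AP-1 transcripts under glutamate was addressed by comparing each with Glutamate. None of the 7 genes was called by edgeR's quasi-likelihood test in any of these 4 comparisons, where 0% of all tested genes were called in each. No member reached an unadjusted p below 0.05 in them either, against 5.08% of genes for Memantine, 1.08% for Glutamate_vesicles, 0.681% for Glutamate_secret and 1.07% for Glutamate_BPC, and none was called by the likelihood-ratio test or DESeq2, which called 0% to 0.0139% and 0% to 0.0208% of all genes in these comparisons. The log2 difference of Fos from Glutamate was -0.49 (SE 0.42; 95% interval -1.38 to 0.40) with memantine, -0.83 (SE 0.42; -1.73 to 0.07) with vesicles, -0.49 (SE 0.42; -1.39 to 0.40) in Glutamate_secret and -0.30 (SE 0.42; -1.19 to 0.59) in Glutamate_BPC. Without Glutamate 3, the library with the highest Fos, these differences became 0.01, -0.33, 0.01 and 0.20. The largest differences of the other members in either direction were 1.85 for Fosb with memantine (95% interval -0.73 to 4.42) and -1.57 for Fosl2 in Glutamate_BPC (-3.70 to 0.55). With the replicate number as a block, which the numbers of Memantine, Glutamate_secret and Glutamate_BPC allowed, no member was called in these 3 comparisons. The block called 0% of all tested genes in each of them. Fosl2 in Glutamate_BPC (log2 difference -1.37, SE 0.64, edgeR adjusted p = 0.966) was then the only member at an unadjusted p below 0.05, as were 3.38% of all genes there. An F test of edgeR over the 4 groups without memantine called none of the 7, and 0% of all genes.

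Set against Control, which these comparisons share, Fos was higher in every treated group. The log2 fold changes were 1.64 (SE 0.43, edgeR adjusted p = 1) in Memantine, 1.30 (SE 0.43, edgeR adjusted p = 0.237) in Glutamate_vesicles, 1.64 (SE 0.43, edgeR adjusted p = 0.151) in Glutamate_secret and 1.83 (SE 0.44, edgeR adjusted p = 0.295) in Glutamate_BPC. The quasi-likelihood test called none of the 7 genes in these 4 comparisons, and it called 0.0139% of all genes for Glutamate_vesicles and 0% for the others. At an unadjusted p below 0.05, Fos, Fosb (log2 fold change 3.51, SE 1.33) and Fosl2 (2.85, SE 1.06) were higher in Memantine, 3 of 7 against 0.576% of all genes. Fos, Fosl1 (1.05, SE 0.48) and Fosl2 (2.33, SE 1.05) were higher in Glutamate_vesicles, 3 of 7 against 3.99%. In Glutamate_secret they were Fos, Junb (2.44, SE 0.68) and Fosl1 (1.18, SE 0.48), 3 of 7 against 4.14%, and in Glutamate_BPC they were Fos and Junb (2.07, SE 0.67), 2 of 7 against 3.92%. The likelihood-ratio test and DESeq2 each called Fos and Junb in Glutamate_secret, with 1.55% and 3.12% of all genes called, and Fos in Glutamate_BPC, with 0.424% and 1.78%. Neither called a member in Memantine, with 0% of genes called by both, or in Glutamate_vesicles, with 1.11% and 3.44%. With the replicate number as a block, which its libraries and those of Control allowed, the Glutamate_vesicles comparison called none of the 7 genes and 3.74% of all genes. In that block fit Fos, Fosl1, Fosl2, Jun (log2 fold change 0.74, SE 0.29) and Junb (1.61, SE 0.57) were higher at an unadjusted p below 0.05. In either direction, 19.8% of all genes reached that level there. Each of the log2 fold changes without the block kept its sign when any 1 library was left out, but several moved. That of Fosl2 in Memantine fell to 1.05 without Memantine 2, and in Glutamate_vesicles it fell to 1.05 without Glutamate_vesicles 2. That of Fosb in Memantine lay between 2.81 without Memantine 1 and 5.04 without Control 3.

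Memantine was also compared with the 4 pooled glutamate groups. None of the 7 genes was called, against 2.39% of all tested genes, although at an unadjusted p below 0.05 Fosb was higher, as were 10.8% of all genes. The log2 difference of Fosb was 2.06 (SE 0.83, edgeR adjusted p = 0.287), and it fell to 1.36 without Memantine 1. Fos differed by -0.08 (SE 0.33; 95% interval -0.79 to 0.63). Junb was lower by a log2 difference of -1.07 (SE 0.55; 95% interval -2.23 to 0.09), with Memantine values of 6.11 to 25.9 CPM inside the range of the other glutamate libraries, 8.44 to 58.7 CPM, except for Memantine 2. Across all 6 groups, the F test of edgeR called none of the 7 genes, the lowest adjusted p being 0.230 for Fos, against 0.00695% of all genes.

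Other basic leucine zipper genes that pair with Fos or Jun gave a mixed picture. Of 12 listed partners, 11 were tested and Batf was filtered out. None was called for Glutamate against Control, while at an unadjusted p below 0.05 Atf3, Maff and Batf3 were higher, as were 2.13% of all genes, and Maf was lower, as were 5.97%. Atf3, a stress-induced Jun partner, had 36.5 ± 12.3 CPM in Glutamate and 8.56 ± 1.40 in Control (SD, n = 3; log2 fold change 2.09, SE 0.53), and Maff, a small Maf protein without a transactivation domain, had 10.0 ± 5.53 and 1.19 ± 1.05 CPM (2.92, SE 0.81). Batf3 averaged 2.36 and 0.180 CPM (3.36, SE 1.52). In the pooled comparison 1 partner was called, the large Maf protein gene Maf, which fell from 16.7 ± 5.76 CPM in Control to 5.97 ± 2.55 (SD, n = 12; log2 fold change -1.54, SE 0.29, edgeR adjusted p = 0.0108). That call was lost without Control 1 or Control 2, with adjusted p up to 0.0603. At an unadjusted p below 0.05, Atf3, Atf4 and Maff were higher in the pooled comparison, 3 of 11 against 4.87% of all genes. At the same level 2 of 11 were lower, Maf among them, against 11.5% of all genes. Atf4 is named after its values were seen. Of all genes, 3.96% were called in this comparison. The median log2 fold change of the 11 partners was -0.03 and that of all genes 0.04.

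Kinases and factors upstream of AP-1 were called in neither Glutamate against Control nor the pooled comparison, in which all 19 listed genes were tested. Mapk10, which encodes the neuronal kinase JNK3, had 13.5 ± 4.86 CPM in Glutamate and 31.0 ± 2.49 in Control (SD, n = 3; log2 fold change -1.20, SE 0.47). It was the only one of the 19 at an unadjusted p below 0.05, and 5.97% of all genes were lower at that level. In the pooled comparison 1 of the 19 was higher at that level, against 4.87% of all genes, and 4 were lower, against 11.5%. Named after their values were seen, these were Srf, the serum response factor, and Mapk10, Camk4, Map3k5 and Rps6ka5. In Memantine against the pooled groups Mapk10 was called higher (log2 fold change 1.55, SE 0.33, edgeR adjusted p = 0.0275), at 41.4 ± 25.1 CPM against 14.3 ± 3.95. It was the only one of the 19 called there, and 2.36% of all genes were called higher. At an unadjusted p below 0.05, 4 of the 19 were higher there, against 10.8% of all genes, and 0 lower, against 1.13%. The call of Mapk10 was lost when any 1 of 7 of the 15 libraries was left out, both Memantine 1 and Memantine 2 among them. The neuronal marker sums given above moved in the same direction as Mapk10, and their part in it was not tested.

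Of 19 listed genes that AP-1 is known to act on, 18 had a row and 14 were tested, since Mmp3, Mmp9, Mmp10 and Mmp13 were filtered out and Dusp1 was not analysed here. The list was chosen with earlier results of these data known, so its counts beside the shares of all genes are descriptions and no test of the list. For Glutamate against Control, 8 of 14 were higher, against 2.13% of all genes, and 0 lower at an unadjusted p below 0.05, none was called, and the median log2 fold change was 2.10 against 0.08 over all genes. Hbegf, a growth factor of the EGF family, averaged 164 and 26.5 CPM (log2 fold change 2.64, SE 0.65), and Ccl2, a chemokine for monocytes, averaged 33.8 and 2.41 CPM (3.76, SE 1.18). The log2 fold changes of Fgf2, Lif and Hmox1 were 2.17 (SE 0.69), 2.89 (SE 1.10) and 1.40 (SE 0.57). In the pooled comparison 12 of 14 were higher at that level, against 4.87% of all genes, and 3 were called, all higher. These were Hbegf (2.68, SE 0.58, edgeR adjusted p = 0.0195), Ccl2 (4.40, SE 1.14, edgeR adjusted p = 0.0412) and Fgf2 (2.39, SE 0.62, edgeR adjusted p = 0.0420), against 0.257% of all genes called and higher. The call of Hbegf was lost without Control 2 or Control 3, that of Ccl2 was kept in 3 of the 15 settings with 1 library left out and that of Fgf2 in 2. Against the pooled groups, Memantine had 4 of the 14 lower, against 1.13% of all genes, and 0 higher, against 10.8%, at an unadjusted p below 0.05, and none was called. In the pooled comparison the log2 fold change was also above 0 for 7 of 7 microglial markers (median 1.19) and 7 of 7 markers of the oligodendrocyte lineage (median 0.87). It was above 0 for 6 of 7 astrocyte markers (median 0.23), and none of these glial markers was called. The median over all genes was 0.04. Over 10 neuronal markers the median was -1.72, and 3 of the 10 were called lower, as were 3.7% of all genes. In Memantine against the pooled groups 3 of the 10 neuronal markers were called higher, as were 2.36% of all genes. The part of these marker shifts in the target genes was not tested.

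**Figure D4:**
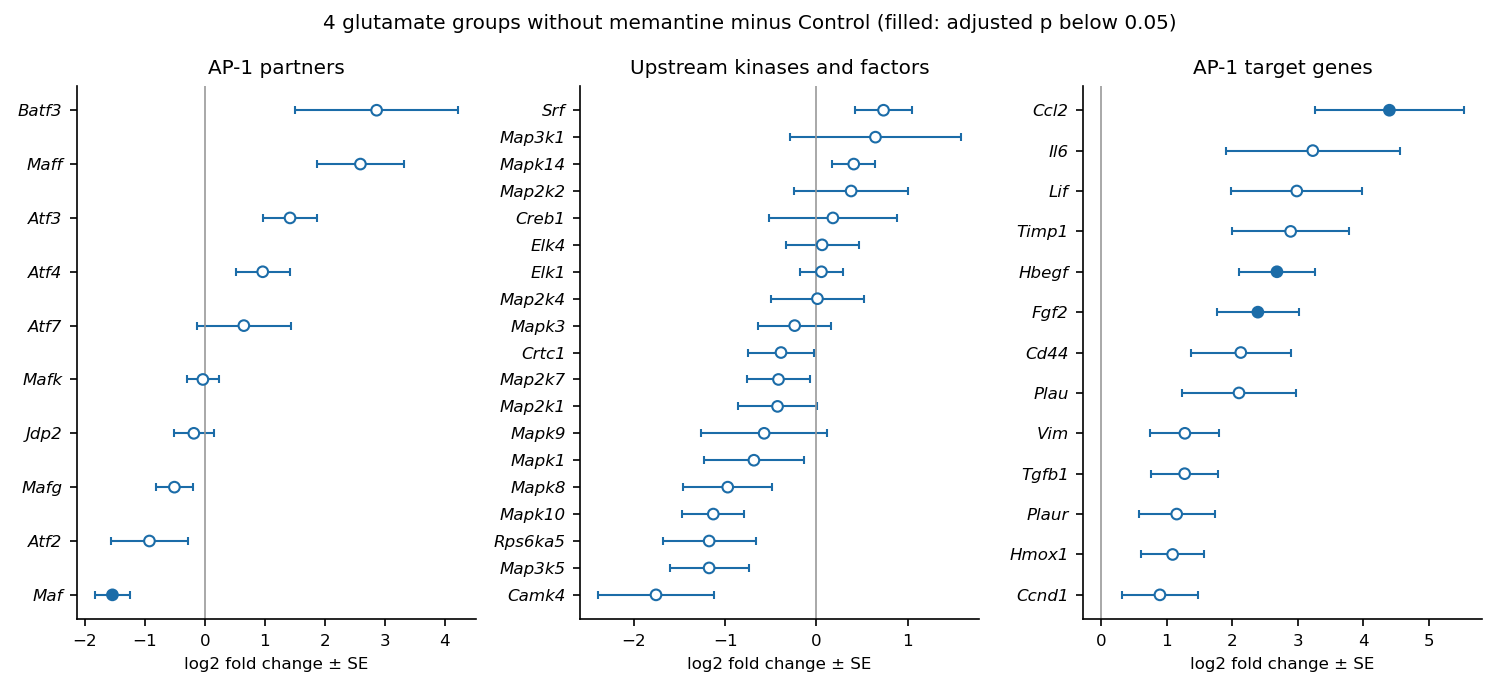
Log2 fold change (horizontal axes, bars are the SE) of the pooled glutamate groups without memantine (12 libraries) from Control (3 libraries) for AP-1 partners, upstream kinases and factors, and AP-1 target genes. Filled points have an adjusted p below 0.05, which are Maf among the partners, none upstream, and Ccl2, Hbegf and Fgf2 among the targets. All target genes shown lie above 0.

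Similarity of expression was described by Pearson's r of log2 CPM across the 18 libraries, over the 11473 genes that averaged a log2 CPM of 1 or more. Libraries share treatment, replicate number and scaling, so that these values are descriptions. The nearest genes were Map7d3 for Fos (r = 0.84), Ccn1 for Junb (0.92), Kat14 for Fosl1 (0.93), Rlim for Fosl2 (0.94), Dot1l for Fosb (0.87), Myh9 for Jun (0.95) and Dph7 for Jund (0.97). Among the 7 genes themselves, r was highest between Fosl1 and Junb (0.80) and lowest between Jun and Jund (-0.76). With each replicate number centred separately, r was 0.78 for Fosl1 and Junb and -0.46 for Jun and Jund, while that of Fos and Fosl1 was 0.68 against 0.66 before centring. Jun and Fosl2, both highest in libraries of number 2, had r = 0.73, or 0.61 after centring.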

How the data were processed

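Per the labels and the methods of the study, libraries of messenger RNA were quantified by the authors with Salmon and deposited in the form of expected counts (estimated counts per gene, not normalised, 9.63% of values not whole). The submitters' notes list STAR, Salmon and the build rn6, without versions. The labels and the study name different library kits and sequencers, and strand use in the counting was not stated, so reads of overlapping antisense genes may be shared. The design was written for counts, and estimated counts were rounded and treated alike. No deposited column was left unmapped to a sample.

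Tests used edgeR 4.0.16 in R 4.3.3 on all 18 libraries, with filterByExpr (minimum count 10, minimum total 15), TMM scaling, 1 mean per group, the two-sided quasi-likelihood test and Benjamini-Hochberg adjustment over 14398 genes, called at an adjusted p below 0.05. SEs follow from its F statistic, and log2 CPM used a prior count of 2. Exact permutation tests took the mean log2 CPM of single genes. The quasi-likelihood test was tried on simulated counts with known changes, for Glutamate against Control and for the pooled comparison. Alternatives were the likelihood-ratio test, DESeq2 1.42.0, other scalings, no filter, removal of the 78 ribosomal RNA rows, a ribosomal RNA covariate, a replicate block, only the groups compared and leaving out each library. Ribosomal RNA rows and promoters came from RefSeq (GRCr8). No libraries held identical values.

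Library numbers were taken to pair samples where all 3 same-numbered pairs correlated above 0.1 in their deviations from group means. This held for Memantine, Glutamate_secret and Glutamate_BPC against Glutamate and for Glutamate_vesicles against Control.

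The members and the lists of partners, upstream genes, targets and markers were chosen with earlier results of these data known. Their counts beside the shares of all genes are therefore descriptions and no test of a list. Fold changes are given for all members in the 2 main comparisons with Control and elsewhere for Fos and any member at an unadjusted p below 0.05. From each list, at most 6 genes at that level in Glutamate against Control are given by smallest p, some list genes are not reported here, and the 3 nearest genes by correlation were computed for each member.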

Additional observations from a re-analysis of the deposited data

How the results depend on the processing

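Across the alternatives, Fos kept a positive log2 fold change against Control in every setting run. With 1 library left out it ranged from 1.63 to 2.43 for Glutamate and from 1.58 to 1.86 for the pooled glutamate groups, in which the number of AP-1 members called ranged from 0 to 1. The likelihood-ratio test and DESeq2 each called 1 member in Glutamate, 2 in Glutamate_secret, 1 in Glutamate_BPC and 2 in the pooled groups, all against Control, beside the shares of all genes given above, and 1 across the 6 groups, with 4.08% and 4.98% of all genes called. With the ribosomal RNA share as a covariate, 1 was called in Glutamate (0.222% of all genes), 2 in Glutamate_secret (4.04%), 4 in the pooled groups (10.8%), 1 (Fosb, edgeR adjusted p = 0.0434) in Memantine against the pooled groups (5.4%), and 1 across the 6 groups (2.67%).

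Same-numbered libraries of Glutamate and Control had correlations of 0.59, 0.57 and -0.12, so their numbers were not taken as pairs. The replicate block called 1 member (Fos, adjusted p = 0.0399) in Glutamate against Control, with 1.15% of all genes called, 2 in Glutamate_secret (4.86%), 1 in Glutamate_BPC (1.74%) and 3 (Fos, Fosl1 and Junb) in the pooled groups (12%). It changed no call of a member in the paired comparisons.

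Jund, near 0 throughout, reversed for Glutamate against Control to -0.0113 with DESeq2, -0.0119 with RLE factors, -0.0273 with upper-quartile factors, -0.0923 with the block, -0.122 with the covariate and -0.00246 with only the compared groups, and ranged from -0.41 to 0.33 with 1 library left out. In the pooled comparison it was -0.00824 with upper-quartile factors and -0.0271 with the block, and ranged from -0.17 to 0.32. Fos in Memantine against the pooled groups was 0.0292 with the covariate and ranged from -0.33 to 0.21. Against Glutamate, with 1 library left out, Fos ranged from -0.78 to 0.0136 in Memantine, -0.79 to 0.00721 in Glutamate_secret and -0.59 to 0.20 in Glutamate_BPC. The cause was not tested. Fosb could not be tested with only the groups of Glutamate and Control, since it failed the filter there. The calls of list genes under each alternative were examined after seeing the data. Depth limits Fosb and Fosl2, with minima of 0 and 2 counts.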
